A study of Oryctolagus cuniculus with 18 samples.

Results

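Of the 84 genes of interest (GOIs) on the rabbit wound healing PCR array, 7 that encode collagen chains, a collagen-binding proteoglycan or a collagen-modifying enzyme were followed in the lower abdominal aorta of every rabbit. They were chosen by symbol: the collagen chains COL1A2, COL4A3, COL5A1, COL5A3 and COL14A1, the proteoglycan decorin (DCN) and lysyl hydroxylase 2 (PLOD2). Other genes on the array also act on collagen. The 18 male New Zealand White rabbits were 11 weeks old at the start. The 9 control rabbits received normal chow. The 9 atherosclerotic rabbits received a diet with 0.30% cholesterol for 8 weeks and then 0.15% for 12 weeks, and their aorta was denuded with a balloon catheter in 2 operations. Diet and denudation always occurred together, so they cannot be told apart.

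Collagens give the vessel wall its tensile strength. Type I collagen forms the thick fibrils of the wall, type V collagen is built into the same fibrils and helps to set their diameter, type XIV collagen sits on the fibril surface, and type IV collagen forms the sheets of basement membranes. Decorin binds fibrils from outside and influences their spacing, while lysyl hydroxylase 2 modifies lysines of the collagen chains before secretion and so directs which cross-links form later. In the artery these proteins come mainly from smooth muscle cells and fibroblasts, and a fibrous plaque is rich in type I collagen.

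Expression is given as the deposited ratio, 2 to the power of minus deltaCt, which sets the threshold cycle (Ct, the number of PCR cycles a well needs to reach the detection threshold) against that of 5 reference genes of the same rabbit. One log2 unit is a doubling. All 126 wells of these 7 genes gave a usable value except 2, both of COL5A3 in control rabbits, where the Ct was later than the ceiling of 35 cycles that the values show. The ratio is bulk RNA of the whole segment, so a change in the number of cells that make a transcript and a change in transcript per cell cannot be told apart. A level of one gene is not set against the level of another, since the assays may differ in efficiency.

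COL5A3 and COL1A2 rose and PLOD2 fell in the atherosclerotic group, while COL4A3, COL5A1, COL14A1 and DCN did not pass the test at the deposited reference level. Groups were compared with limma on log2 ratios, and p-values were adjusted over all 84 GOIs with a threshold of 0.05. Thus 2 of 7 genes were called higher, against 38.1% of all GOIs, and 1 of 7 lower, against 22.6% of all GOIs. Calls in either direction came to 3 of 7, against 60.7% of all GOIs. The median log2 difference of the 7 genes was -0.06 and that of all 84 GOIs was 0.37. In none of the 7 genes were the groups free of overlap, which 13.1% of GOIs were with the atherosclerotic group above and 9.52% with it below.

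COL1A2 encodes the alpha 2 chain of type I collagen, the main fibrillar collagen of the wall. In the control group its ratio was 0.151 at the lowest, 0.271 at the median and 0.495 at the highest. In the atherosclerotic group these values were 0.451, 0.682 and 1.93. Rabbit 12 alone of the atherosclerotic group fell within the control range, and the other 8 lay above every control rabbit. The log2 difference of 1.61 (standard error 0.29, adjusted p = 6.2e-05 from limma) corresponds to 3.05-fold higher expression. An exact two-sided permutation test over all assignments of 9 against 9 rabbits gave p = 8.2e-05. This call depended on the reference level: without ACTA2 in it the difference was 1.72-fold and missed the threshold (adjusted p = 0.056 from limma).

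COL5A3 encodes a less common chain of type V collagen. Its control ratios ran from 0.000142 through a median of 0.000571 to 0.00392, and its atherosclerotic ratios from 0.00149 through 0.00795 to 0.0103. Every atherosclerotic rabbit stood above the control median and 6 of 9 above every control rabbit. Control rabbit 21 was the highest of its group and atherosclerotic rabbit 20 the lowest of its own, and the ranges of the remaining 16 rabbits did not overlap. The log2 difference was 3.07 (standard error 0.54, adjusted p = 5e-05 from limma), an 8.40-fold rise at the deposited reference level that ranked 12 of 84 from the highest and is understated by the 2 control wells at the ceiling. With the 2 late control wells taken at their deposited Ct instead of the ceiling, the rise was 10.6-fold.

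PLOD2, the hydroxylase of collagen lysines, moved the other way. Its ratio was 0.058 at the lowest, 0.0896 at the median and 0.155 at the highest in the control group, and 0.0233, 0.0456 and 0.0648 in the atherosclerotic group. Here 8 of 9 atherosclerotic rabbits lay below every control rabbit, and rabbit 20 was the exception. The log2 difference of -1.04 (standard error 0.23, adjusted p = 0.00064 from limma) is a 2.05-fold lower level. Without LDHA in the reference level the log2 difference was -0.48 and missed the threshold (adjusted p = 0.058 from limma). PLOD2 also varied least among rabbits of the 7 genes, with an SD of 0.43 log2 units among control and 0.48 among atherosclerotic rabbits (n = 9 each), where the median GOI had 0.73 and 0.71.

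DCN, the small proteoglycan on the fibril surface, had control ratios of 0.33, 0.411 and 2.87 and atherosclerotic ratios of 0.472, 1.06 and 3.49 (lowest, median and highest). All 9 atherosclerotic rabbits were above the control median, but 4 control rabbits, numbers 9, 15, 19 and 21, reached into the atherosclerotic range. Rabbit 15 did so only just, at -1.05 on the log2 scale against -1.08 for the lowest atherosclerotic rabbit. The log2 difference of 0.96 (95% interval 0.07 to 1.85) did not pass the threshold (adjusted p = 0.057 from limma). Without control rabbit 21 it was 1.24 with an adjusted p of 0.0053, and it also passed without control rabbit 9 (adjusted p = 0.045) or atherosclerotic rabbit 2 (adjusted p = 0.028). Leaving out any other single rabbit did not bring it past the threshold. Without atherosclerotic rabbit 20, the highest of its group, it was 0.76 (adjusted p = 0.12 from limma). Without rabbits 3 and 20 together it was 0.67 (adjusted p = 0.16).

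COL5A1 encodes the chain present in nearly all type V collagen. It ran from 0.0324 through a median of 0.0831 to 0.121 in the control group and from 0.0267 through 0.0471 to 0.109 in the atherosclerotic group. In 8 of 9 atherosclerotic rabbits it lay below the control median, yet the log2 difference of -0.51 (95% interval -1.08 to 0.07) did not pass the test (adjusted p = 0.12 from limma). Leaving out control rabbit 21, the lowest of its group, or atherosclerotic rabbit 4, the highest of its own, brought it past the threshold (adjusted p = 0.027 and 0.044). Without atherosclerotic rabbit 20, the lowest of its group, the difference was -0.38 (adjusted p = 0.19 from limma).

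COL14A1, which encodes a fibril-associated collagen, had control ratios of 0.00946, 0.0174 and 0.0329 and atherosclerotic ratios of 0.00399, 0.0196 and 0.037 (lowest, median and highest). The groups overlapped almost wholly, with 1 atherosclerotic rabbit above and 1 below every control rabbit. The log2 difference was -0.06 (95% interval -0.80 to 0.69, adjusted p = 0.92 from limma), and the interval still allows a change in either direction. Its sign turned to 0.20 without atherosclerotic rabbit 20.

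COL4A3 encodes a basement membrane collagen chain and was the least steady of the chains detected in every rabbit. Its control ratios spread from 0.000796 through 0.00649 to 0.0112, and its atherosclerotic ratios from 0.000732 through 0.00342 to 0.00924. In 8 of 9 atherosclerotic rabbits it lay below the control median. The SD was 1.34 log2 units among control and 1.05 among atherosclerotic rabbits (n = 9 each). The log2 difference of -0.67 (95% interval -1.77 to 0.44) did not exceed this spread (adjusted p = 0.28 from limma). The array lists this assay under the symbol COL4A3 with the alias Col4a1, the symbol of another type IV chain, and its accession was not found in the gene table used here, so which chain it reads rests on the symbol and on the array's name for it, which is type IV, alpha 3.

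**Figure D1:**
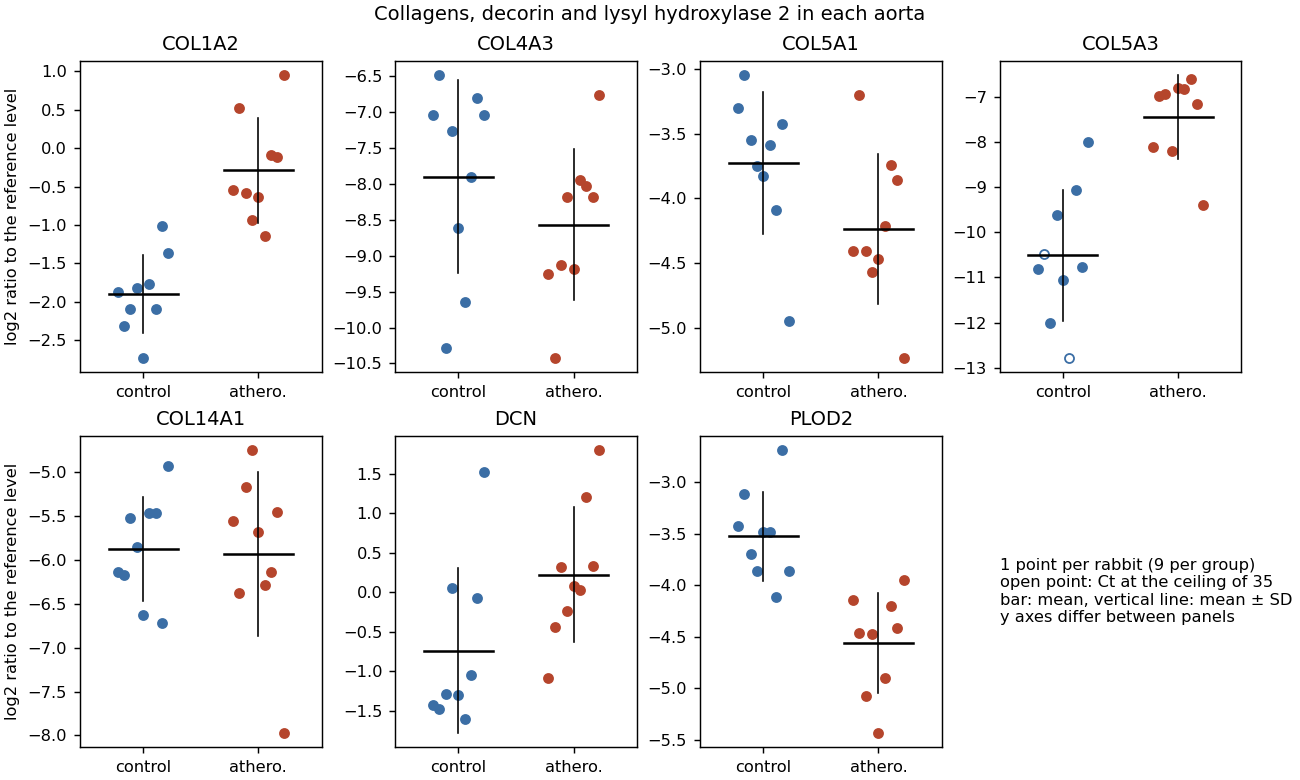
Log2 ratio to the reference level (y axis) of each gene in the 9 control and 9 atherosclerotic rabbits, 1 point per rabbit, with the mean and the SD. COL1A2 and COL5A3 sit higher and PLOD2 lower in the atherosclerotic group, with 8, 6 and 8 of 9 atherosclerotic rabbits outside the control range, and the other 4 genes overlap broadly.

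The reference genes moved between the groups, and this bears on every value above. Against the mean Ct of the other 4 reference genes, ACTA2, the actin of smooth muscle, differed by -3.79 log2 units and LDHA by 3.01 (exact two-sided permutation tests, p = 8.2e-05 and p = 4.1e-05). GAPDH differed by 1.24 and ACTB by -0.62 (p = 4.1e-05 and p = 0.011 in the same exact test), while LOC100346936 differed by 0.17 (exact p = 0.42). TAGLN, a smooth muscle gene listed as LOC100009332, was 7.94-fold lower (adjusted p = 2.8e-08 from limma). The 3 smooth muscle markers include the reference gene ACTA2. Their summed ratio ran from 25.2 to 36.9 in the control group and from 1.31 to 13.6 in the atherosclerotic group. The 13.6 came from rabbit 20, whose ACTA2 ratio was 11.6, where the next highest of its group was 3.65 in rabbit 14. Of 7 myeloid markers on the array 5 rose and 1 fell, with summed ratios of 0.468 to 0.996 and 3.33 to 7.27. These sums are mostly CTSK, which alone ran from 0.454 to 0.991 and from 3.14 to 6.99. The epithelial markers EGF and ITGB6 were at the Ct ceiling in all 9 atherosclerotic rabbits and in 8 and 9 control rabbits. Of 3 T cell markers 1 rose and 1 fell (summed ratios 0.0796 to 0.147 and 0.0647 to 0.274), as did 1 each of 3 liver markers (0.00127 to 0.00781 and 0.000602 to 0.00365). The T cell sum of 0.274 was that of rabbit 20, whose IFNG ratio was 0.272, where the next highest of its group was 0.117 in rabbit 12. The part of this shift in cell markers in the collagen values was not tested. The reference level itself was 24.53 cycles in control rabbit 3 and 19.79 in atherosclerotic rabbit 20, against group medians of 22.55 and 23.01. Without both of these rabbits 2 genes were still called higher and 1 lower, where 48.8% and 20.2% of all GOIs were.

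COL5A3 was called higher at all 8 reference levels examined, but the other calls depended on which genes formed the level. With ACTA2 left out, the log2 difference of COL1A2 was 0.78, no longer past the threshold, and PLOD2 was 3.63-fold lower (adjusted p = 3.3e-05 from limma). At that level COL5A1 fell 2.52-fold (adjusted p = 0.00038), and COL4A3 (adjusted p = 0.029) and COL14A1 (adjusted p = 0.015) were also called lower, as were 40.5% of all GOIs. With LDHA left out instead, DCN was called higher, 2.85-fold (adjusted p = 0.0036), as it was without GAPDH (adjusted p = 0.017) or LOC100346936 (adjusted p = 0.046), and the PLOD2 call was lost. With both left out, COL1A2 was 2.45-fold higher (adjusted p = 0.0037), COL5A1 1.77-fold lower (adjusted p = 0.018) and PLOD2 2.55-fold lower (adjusted p = 0.00087). DCN was not called there (log2 difference 0.65, adjusted p = 0.25 from limma). Without ACTA2 alone DCN was 0.14 (adjusted p = 0.81), and with the mean of the detected GOIs as reference level 0.39 (adjusted p = 0.4). A reference level moves all 7 genes by the same amount in each rabbit, so their order from COL5A3 at the top through COL1A2, DCN, COL14A1, COL5A1 and COL4A3 to PLOD2 was the same throughout.

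**Figure D2:**
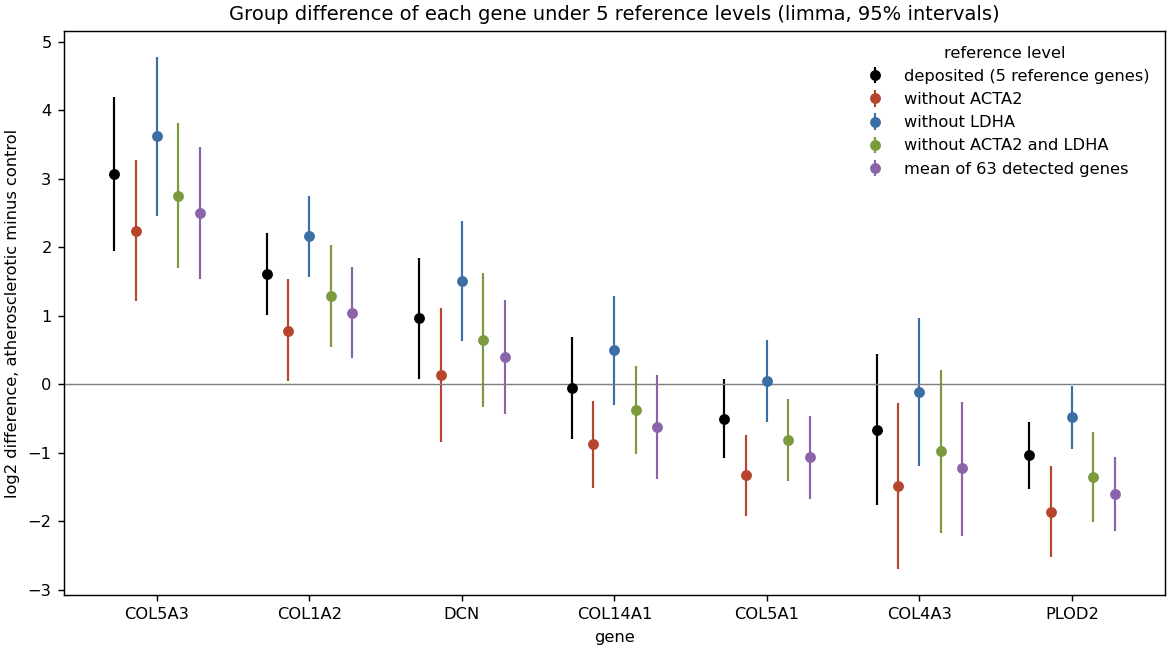
Log2 difference between the atherosclerotic and control group (y axis) of each gene (x axis) with its 95% interval from limma, at the deposited reference level and at 4 others. The whole row of genes shifts up without LDHA and down without ACTA2, while the order of the genes stays; COL5A3 lies above 0 at every level, from 2.24 to 3.62.

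Ratios between 2 genes of the same rabbit contain no reference level and were therefore compared directly. The group difference of such a ratio is the difference between the responses of its 2 genes. All 3486 pairs of GOIs were tested by the exact two-sided permutation test and adjusted together, and 66.1% of them were called. Of the 21 pairs among the 7 genes 11 were called, a share below this background. Among COL14A1, COL5A1, COL4A3 and PLOD2, the 4 genes with the lowest differences, 0 of 6 pairs were called in the exact test, 0 at an unadjusted p under 0.05 and 0 in limma. Among COL5A3, COL1A2 and DCN 1 of 3 was called in the exact test and 2 in limma, and the other 10 calls were among the 12 pairs between these sets. The sets were formed from the same differences, so this placement is a description only.

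PLOD2 over COL1A2 separated the groups without overlap, the 1 pair of the 21 to do so, where 25.2% of all pairs did. On the log2 scale the control rabbits lay between -2.50 and -0.75 with a median of -1.68, and the atherosclerotic rabbits between -4.98 and -3.53 with a median of -4.29. The difference of -2.64 (standard error 0.32 from limma) means that the transcript of the lysine hydroxylase was 6.25-fold lower for a given amount of type I collagen transcript (exact permutation p = 4.1e-05, the smallest that 9 against 9 allows, adjusted p = 0.00016 over all pairs). Leaving out any 1 rabbit kept the difference between -2.75 and -2.54.

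The 2 type V chains parted. COL5A3 over COL5A1 had a control median of -7.34 (range -9.19 to -3.05) and an atherosclerotic median of -3.29 (range -4.16 to -2.33). The log2 difference of 3.58 (95% interval 2.29 to 4.86) is a shift of 11.9-fold towards the alpha 3 chain, understated by the 2 control wells of COL5A3 at the ceiling (exact permutation p = 0.00025, adjusted p = 0.00066). Control rabbit 21 lay inside the atherosclerotic range at -3.05, and without it the difference was 4.04.

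Against COL1A2, the other collagens except COL5A3 fell. COL5A1 over COL1A2 went from a control median of -1.82 (range -3.59 to -0.73) to an atherosclerotic median of -3.74 (range -6.18 to -3.06), with 8 of 9 atherosclerotic rabbits below every control rabbit. Its log2 difference of -2.12 (95% interval -2.98 to -1.25) is a 4.33-fold lower share of type V alpha 1 transcript per type I transcript (exact permutation p = 8.2e-05, adjusted p = 0.00028). COL4A3 over COL1A2 differed by -2.28 (exact permutation p = 0.0012, adjusted p = 0.0026), with 4 of 9 atherosclerotic rabbits below the control range. COL14A1 over COL1A2 differed by -1.66 (exact permutation p = 0.0037, adjusted p = 0.0071), or -1.25 without atherosclerotic rabbit 20, which had the lowest ratio. COL5A3 over COL1A2 was higher by 1.46 (95% interval 0.18 to 2.74) but missed the threshold in the exact permutation test (p = 0.042, adjusted p = 0.062); limma on the same pairs gave an adjusted p of 0.042, and without atherosclerotic rabbit 20 the exact test gave a difference of 1.86 and an adjusted p of 0.0077. It also passed without control rabbit 15 (adjusted p = 0.041) and without control rabbit 21 (adjusted p = 0.032), without the Ct ceiling (1.80, adjusted p = 0.038), and without rabbits 3 and 20 together (1.92, adjusted p = 0.01). These 6 alternatives passed, and 15 did not. The smallest difference was 1.16, without control rabbit 13 (exact permutation adjusted p = 0.12).

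Among the ratios of decorin to the 5 collagens, the one to COL1A2 shifted least. DCN over COL1A2 had a control median of 0.94 (range 0.17 to 2.88) and an atherosclerotic median of 0.72 (range -0.96 to 1.30). The log2 difference of -0.65 was not past the threshold (exact permutation p = 0.10, adjusted p = 0.14), and its 95% interval of -1.47 to 0.17 still allows a fall. DCN rose against COL4A3 by 1.63 (exact permutation p = 0.0039, adjusted p = 0.0073) and fell against COL5A3 by 2.11 (exact permutation p = 0.0031, adjusted p = 0.0061). Against COL14A1 the difference was 1.02 (95% interval -0.22 to 2.25, exact permutation adjusted p = 0.16), and 0.57 without atherosclerotic rabbit 20. Against COL5A1 it was 1.47 (95% interval 0.22 to 2.71, exact permutation adjusted p = 0.053), and 1.90 with an adjusted p of 0.0026 without control rabbit 21, whose ratio of 6.47 was the highest of its group. It passed as well without atherosclerotic rabbit 2 (adjusted p = 0.045) or 4 (adjusted p = 0.031) and with limma on pairs (adjusted p = 0.036). Without atherosclerotic rabbit 20 it was 1.15 (adjusted p = 0.094), and without rabbits 3 and 20 it was 0.97 (adjusted p = 0.16).

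**Figure D3:**
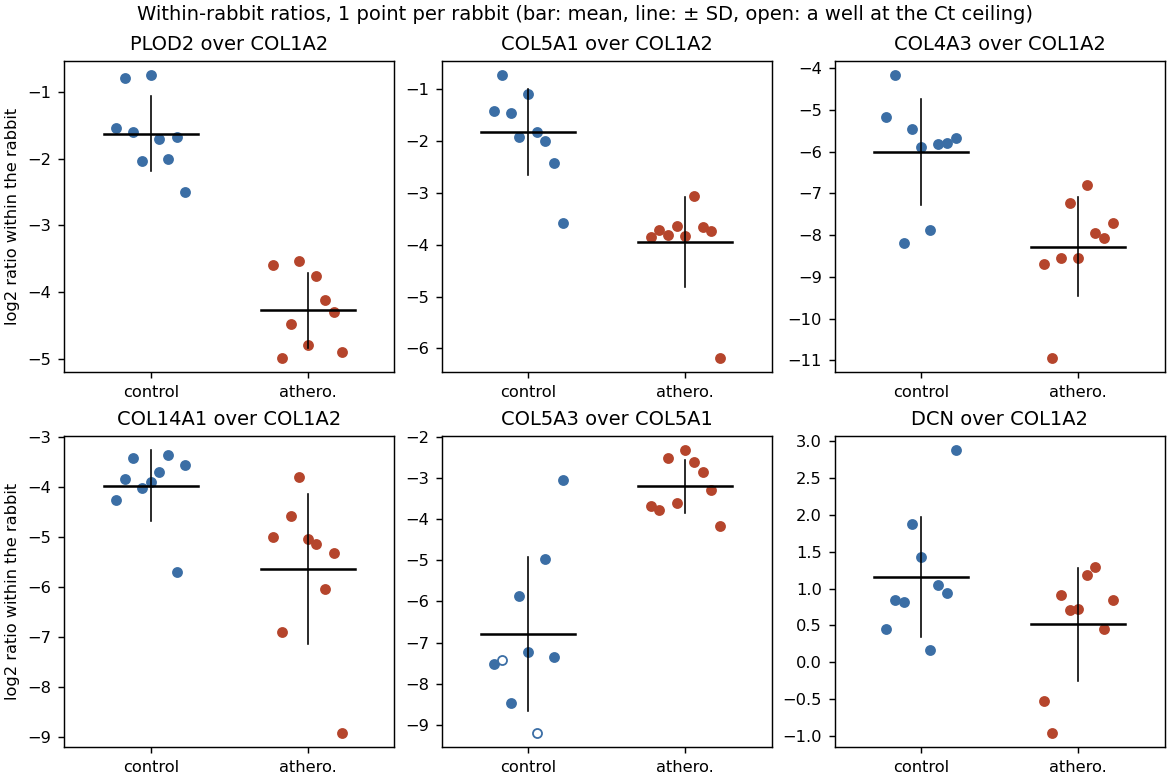
Log2 ratio of 2 genes within each rabbit (y axis) for 6 pairs, 1 point per rabbit in the control and atherosclerotic group, with the mean and the SD. PLOD2 over COL1A2 does not overlap between the groups, COL5A1 over COL1A2 overlaps through control rabbit 21 alone, and DCN over COL1A2 overlaps broadly.

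The remaining pairs filled in the same order. PLOD2 differed from COL5A3 by -4.11, the widest gap of the 21, and DCN over PLOD2 was 3.99-fold higher (exact permutation adjusted p = 0.00058 and 0.0039). COL5A3 gained 3.74 on COL4A3 and 3.13 on COL14A1 (exact permutation adjusted p = 0.00076 and 0.00028), each with 8 of 9 atherosclerotic rabbits above the control range. The 2 control wells at the ceiling enter all 3 of these differences of COL5A3, as they do every ratio with it, and understate them. PLOD2 against COL5A1 was -0.53 (95% interval -1.24 to 0.18), PLOD2 against COL4A3 was -0.37 (95% interval -1.45 to 0.71) and COL5A1 against COL4A3 was 0.16 (standard error 0.64 from limma). None of these last 3 passed the test, and their errors leave room for differences in either direction.

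**Figure D4:**
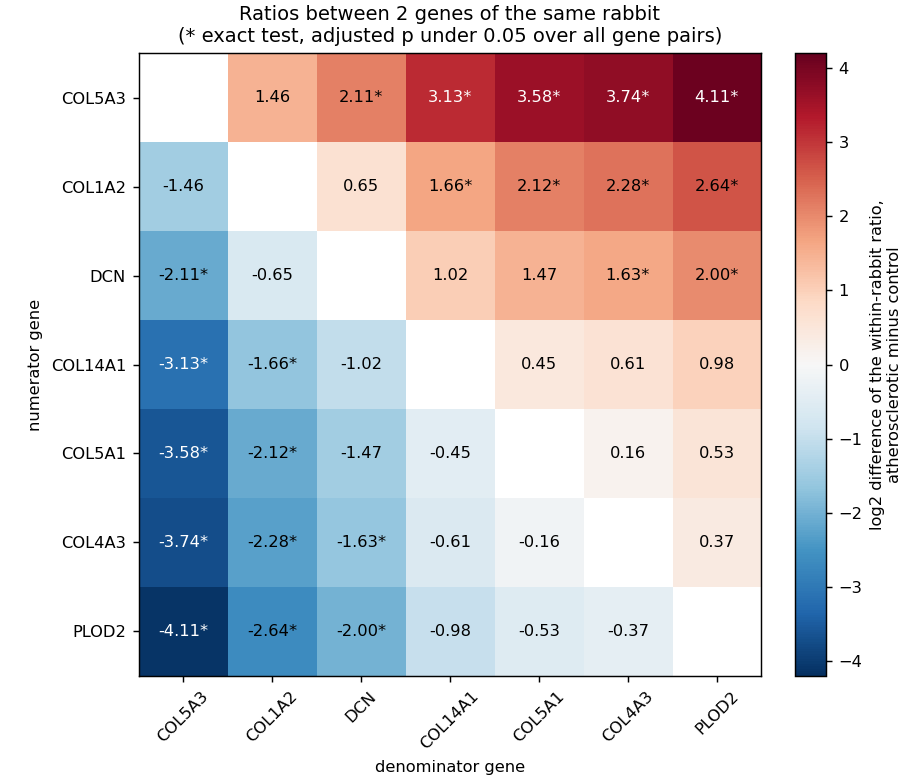
Difference between the groups, in log2 units and atherosclerotic minus control, of the ratio of each gene (rows) to each other gene (columns) within a rabbit; asterisks mark pairs with an adjusted p under 0.05 in the exact test over all 3486 pairs. Values grow away from the diagonal, up to 4.11 in size between COL5A3 and PLOD2, and the block of COL14A1, COL5A1, COL4A3 and PLOD2 holds no asterisk.

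Set against each of the 83 other GOIs in the same way, COL5A3 was higher relative to 59 and lower relative to 4, and COL1A2 higher relative to 46 and lower relative to 13. PLOD2 was lower relative to 50 and higher relative to 8. COL5A1 was lower relative to 39 and higher relative to 10, COL4A3 to 35 and 4, and COL14A1 to 29 and 9. DCN stood in the middle, higher relative to 24 and lower relative to 17. Over all pairs of GOIs 66.1% were called. Of the 83, no call was made with 20 for COL5A3, 24 for COL1A2 and 25 for PLOD2. It was 34 for COL5A1, 42 for DCN, 44 for COL4A3 and 45 for COL14A1, whose shares of calls lay below that background. These counts hold no reference level, but the pairs of one gene share its wells and are not independent.

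The GOIs that kept the steadiest ratio to each gene over the 18 rabbits were found by the SD of the within-rabbit log2 ratio, among the 63 GOIs detected in every rabbit. This is a description without a test, and the 2 groups contribute to it together with the spread within each. The median SD over all 1953 pairs of these GOIs was 1.45. PLOD2 kept closest to ITGB1, the integrin beta 1 chain (SD 0.33), PDGFA (SD 0.38) and ITGAV (SD 0.41), and all 3 had a lower mean in the atherosclerotic group. COL5A1 kept a steady ratio to STAT3 (SD 0.53) and PTK2 (SD 0.55). COL1A2 was nearest to MMP2, a gelatinase (SD 0.69), TGFB1 (SD 0.75) and TIMP1 (SD 0.79), and DCN was nearest to COL1A2 itself (SD 0.84), then CTNNB1 (SD 0.89) and PLAT (SD 0.92). COL14A1 was nearest to MIF (SD 0.73) and RHOC (SD 0.74). COL5A3 with IGF1, ITGA6 and ITGA4 (SD 0.93 to 1.01) and COL4A3 with FGF10, INHBA and IFNG (SD 0.80 to 1.04) followed.

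Genes that act around collagen were read from 4 lists, whose counts stand against 38.1% of all GOIs called higher and 22.6% called lower. Of the enzymes that break down collagen and their inhibitor, 5 of 6 were on the array and all 5 rose; MMP9 and CTSK are also among the myeloid markers above. MMP9, with 6 control wells at the ceiling, was 18.3-fold higher, CTSK, the protease cathepsin K, 6.73-fold, the inhibitor TIMP1 5.28-fold and MMP2 3.56-fold (adjusted p between 7.4e-10 and 1.2e-06 from limma). MMP1, the interstitial collagenase, reached the ceiling in each of the 9 control wells but in none of the 9 atherosclerotic ones, which makes its rise at least 30.9-fold at the deposited reference level. A fold with only some control wells at the ceiling, as for MMP9, is likewise understated. MMP2, with a log2 difference of 1.83, thus rose by an amount close to the 1.61 of COL1A2.

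Of the 4 integrin chains on the chosen list that were on the array, which holds other matrix-binding chains too, ITGA1, ITGA5 and ITGB1 fell and ITGA2 rose. ITGA1, a collagen receptor chain, was 2.99-fold lower and ITGB1, its partner, 1.94-fold lower, both without overlap between the groups, which 9.52% of GOIs showed in that direction. ITGA2, the other collagen receptor alpha chain, was 2.63-fold higher (adjusted p = 0.00016 from limma), and ITGA5, a fibronectin receptor chain, 2.37-fold lower (adjusted p = 0.0043).

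Growth factors that act on matrix-producing cells, with the co-receptor TGFBR3, gave 3 higher and 5 lower genes of 9 on the array. TGFB1 was 1.77-fold higher (adjusted p = 0.0023 from limma), but its log2 difference of 0.83 hardly exceeds the shift of -0.82 that all GOIs took when ACTA2 was left out of the reference level. TGFB3 was 4.44-fold lower (adjusted p = 9.9e-06) and FGF2 3.94-fold lower (adjusted p = 2.1e-06). PDGFB, with 2 control wells at the ceiling, was 24.8-fold higher and IGF1 5.60-fold higher, whereas PDGFA was 1.84-fold lower. The median log2 difference of this list was -0.81, against 0.37 for all GOIs. Of 10 other matrix proteins and cross-linking enzymes 3 were on the array. VTN, vitronectin, rose 4.03-fold, with 2 control wells at the ceiling. TNC, tenascin C, had a log2 difference of -0.61 (adjusted p = 0.22 from limma), and FGA was at the ceiling in 7 control and 9 atherosclerotic rabbits.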

How the data were processed

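Lower abdominal aorta segments of 9 control and 9 atherosclerotic rabbits were taken and their RNA was extracted with TRIzol, reverse-transcribed and read on the wound healing array, 1 well per assay. The authors deposited raw Ct values in cycles, another unit than the ratio, and the ratio 2 to the power of minus deltaCt. Rebuilding the deposited ratio from the Ct values with a ceiling of 35 and the geometric mean over the 5 reference genes' Ct matched it within 5e-07. The authors' table of fold changes per gene was not used. Group and rabbit number came from the labels, which name no plate or batch.

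The log2 of the deposited ratio was tested with limma 3.58.1 in R 4.3.3 over all 84 genes of interest, without covariates or pseudocount, with Benjamini-Hochberg adjustment. Within-rabbit ratios of all 3486 pairs were tested by exact permutation; pairs with no spread were left out of limma on pairs, and intervals of pairs come from that fit. Both tests were checked on simulated data. Named genes were the 7 members, the 3 nearest genes of each (some are not reported here), reference genes, and the called genes with the largest difference of each fixed list, up to 4. Members, lists and tests were chosen with earlier results of these data known. Alternatives were other reference levels, no Ct ceiling, no log, a filter of 5 rabbits of a group, array weights, the other test and leaving out rabbits; leaving out rabbits 3 and 20 together was added after seeing the data. Of the 7 array accessions, 5 were found in RefSeq's rabbit gene table, used for names only. With 1 well per gene, the spread between rabbits includes PCR error. Permutations ran in scipy 1.17.1 under Python 3.11.15, tables in pandas 2.3.3 and numpy 2.4.6, and plots in matplotlib 3.10.9.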

Additional observations from a re-analysis of the deposited data

Results flagged for a closer look

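In 36 groups of 9 values, the 7 genes and 11 of their ratios in each group, the highest or lowest rabbit was far from the others in 7 groups, where chance gives about 1 in 20 groups, or 1.8. Atherosclerotic rabbit 20 held 4 of them. Its COL14A1 was -7.97 on the log2 scale, against -6.38 to -4.75 in the other 8 rabbits. Its COL5A1 over COL1A2 was -6.18 (others -3.86 to -3.06), its COL5A3 over COL1A2 was -10.34 (others -7.55 to -5.68) and its DCN over COL5A3 was 11.19 (others 6.54 to 7.96). These ratios hold no reference level, so the early reference cycle of this rabbit does not enter them. Atherosclerotic rabbit 4 stood apart in COL4A3 over COL1A2, with -10.94 against -8.70 to -6.80. Control rabbit 19 stood apart in COL14A1 over COL1A2, with -5.71 against -4.26 to -3.36. Control rabbit 21 stood apart in DCN over COL5A1, with 6.47 against 1.57 to 3.81.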

How the results depend on the processing

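No paired analysis was possible because the groups share no rabbit number. COL5A3 kept its direction and call under all alternatives, between 2.24 and 3.62 on the log2 scale. Without ACTA2 in the reference level COL1A2 was 0.78, COL4A3 -1.49, COL5A1 -1.33 and COL14A1 -0.88, with 5 of 7 genes called, 1 higher and 4 lower, where 26.2% of all GOIs were higher and 40.5% lower. Without LDHA COL5A1 was 0.04, COL14A1 0.50, DCN 1.51 and PLOD2 -0.48, with 0 genes called lower by limma and 1, PLOD2, lower at an unadjusted p under 0.05, where 11.9% of all GOIs were called lower. Without both, COL5A1 was -0.82 and 2 genes were called lower, with 27.4% of all GOIs. With the mean of the 63 detected genes as reference level COL4A3 was -1.23 and COL5A1 -1.07, with 5 of 7 genes called and 3 of them lower, where 66.7% of all GOIs were called and 34.5% lower. Without GAPDH COL14A1 was 0.23 and DCN 1.24, and without LOC100346936 they were 0.00 and 1.02. With array weights they were 0.30 and 0.83. DCN was called higher in these 3 settings (adjusted p = 0.017, 0.046 and 0.043) and without LDHA. It was 0.14 without ACTA2 (adjusted p = 0.81 from limma) and 0.39 with the mean of the 63 detected genes (adjusted p = 0.4). COL14A1 was also higher by 0.00072 with the ratio in place of its log2 and by 0.16 without rabbits 3 and 20. The cause of these changes was not tested, apart from the change of ACTA2 and LDHA themselves. The median of all GOIs shifted by -0.82 without ACTA2 and by 0.55 without LDHA.

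Leaving out each rabbit in turn, COL1A2 ran from 1.45 to 1.72, COL4A3 from -0.97 to -0.44, COL5A1 from -0.66 to -0.38, COL5A3 from 2.79 to 3.38, COL14A1 from -0.20 to 0.20, DCN from 0.76 to 1.24 and PLOD2 from -1.11 to -0.93. COL14A1 was 0.06 without control rabbit 21. The genes called numbered 3 to 5, with 2 to 3 higher and 1 to 2 lower, where 57.1% to 64.3% of all GOIs were called. Called pairs numbered 11 to 14 of 21, where 64.1% to 67.7% of all pairs were called, and 14 without rabbits 3 and 20, where 69.1% were. With only GOIs detected in every rabbit, which leaves out COL5A3, 6 of 15 pairs were called, against 68.1% of all 1953 such pairs. Single wells and 9 rabbits a group set the limit of precision.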
